A study of Mus musculus with 12 samples.

Results

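The germline and meiosis genes described here are 36 mouse genes, listed by name, that work in germ cells: in meiotic chromosome pairing and recombination, in RNA control, in the piRNA pathway and in germ cell transcription. They were followed in J1 cells, an established mouse embryonic stem cell line, after 24 h with vitamin C or with retinoic acid. A gene was taken as measured where a probe's transcript accession maps to its symbol. On the array design used for vitamin C, 33 of the 36 genes had a probe (44 probes), among 18749 genes in all, and 32 were bright enough to be tested, among 14531. On the second design, used for retinoic acid, 35 had a probe (42 probes), among 20660 genes, and 31 were tested, among 16015. No probe was matched to Piwil4 on either design, nor to Sycp3 and Prdm9 on the first, so these are not analysed there.

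Of the 4 groups, each of 3 samples, the vitamin C group (VC) received 50 µg of vitamin C, an amount the labels give without a volume, and its control received 1 µL of ddH2O. The retinoic acid group (RA) received 1 µM retinoic acid, and its control 1 µL of DMSO. All cells were gelatin-adapted J1 cells, grown on gelatin in Knockout DMEM with serum replacement and with LIF at 1000 U/mL, a cytokine that keeps mouse embryonic stem cells from differentiating, and the labels name no genetic change in any group. Total RNA was hybridised to one-colour Agilent arrays. Whether replicates are separate cultures is not stated in the labels, so a p-value here measures no more than sample-to-sample spread, which could be technical, and all results are of a single cell line.

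In mice, most of these genes act only in germ cells. In embryonic stem cells and early embryos many are held down by a repressor complex, the variant Polycomb complex PRC1.6, which is brought to promoters by the E-box binding pair MGA and MAX and by E2F6 with its partner DP1, and by histone H3K9 methylation and DNA methylation. Germline promoters are rich in CpG and are a textbook case of genes silenced by DNA methylation. In the embryonic gonad, retinoic acid is the signal classically linked to entry into meiosis, through Stra8 and, beside it, Rec8. Vitamin C is a cofactor of dioxygenases, among them the TET enzymes that oxidise methylated cytosine, and of histone demethylases.

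Because promoter elements are central to how these genes are held down, the bases just before the start of 5 members are shown: 3 of those whose level fell by 5-fold or more in RA (Hormad1, Sycp3, Smc1b) and the 2 tested members with the highest rise (Rec8, Stra8). They are RefSeq sequences of build GRCm38.p6, written 5′ to 3′ along the gene's strand and ending 1 base before the start, at chr3:95559427-95559676 (+), chr10:88459337-88459586 (+), chr15:85131958-85132207 (-), chr14:55617916-55618165 (+) and chr6:34920698-34920947 (+) in the order given. Capitals mark, on either strand, the E-box CACGTG, the E2F6 motif TCCCGC (or GCGGGA) and the retinoid receptor half-site AGGTCA (or TGACCT).
Hormad1: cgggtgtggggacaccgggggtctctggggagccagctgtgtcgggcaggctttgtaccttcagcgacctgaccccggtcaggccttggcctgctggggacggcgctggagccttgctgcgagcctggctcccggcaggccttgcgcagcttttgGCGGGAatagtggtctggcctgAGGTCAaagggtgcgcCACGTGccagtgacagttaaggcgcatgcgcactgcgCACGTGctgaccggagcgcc
Sycp3: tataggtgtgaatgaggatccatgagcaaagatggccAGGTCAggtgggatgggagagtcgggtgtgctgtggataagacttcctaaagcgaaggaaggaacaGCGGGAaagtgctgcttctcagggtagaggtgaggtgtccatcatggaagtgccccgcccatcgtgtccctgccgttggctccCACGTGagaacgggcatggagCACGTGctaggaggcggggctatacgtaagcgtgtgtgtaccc
Smc1b: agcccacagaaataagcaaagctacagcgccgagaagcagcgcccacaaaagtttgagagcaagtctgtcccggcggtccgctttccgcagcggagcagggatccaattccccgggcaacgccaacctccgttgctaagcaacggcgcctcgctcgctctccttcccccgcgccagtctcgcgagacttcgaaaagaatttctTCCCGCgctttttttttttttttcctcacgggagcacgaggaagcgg
Rec8: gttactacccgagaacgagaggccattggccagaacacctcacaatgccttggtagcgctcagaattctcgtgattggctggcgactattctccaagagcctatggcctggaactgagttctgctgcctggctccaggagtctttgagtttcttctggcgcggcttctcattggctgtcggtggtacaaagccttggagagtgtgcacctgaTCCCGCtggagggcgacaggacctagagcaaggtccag
Stra8: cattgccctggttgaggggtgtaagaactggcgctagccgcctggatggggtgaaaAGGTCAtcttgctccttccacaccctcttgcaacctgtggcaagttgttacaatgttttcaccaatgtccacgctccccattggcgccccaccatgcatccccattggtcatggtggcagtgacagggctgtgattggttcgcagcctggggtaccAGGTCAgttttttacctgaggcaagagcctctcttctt

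Hormad1 and Sycp3 each carried 2 E-boxes, 1 E2F6 motif and 1 half-site in these 250 bases. Smc1b and Rec8 each carried 1 E2F6 motif, no E-box and no half-site. Stra8 carried 2 half-sites and neither of the other motifs. The E-boxes of Hormad1 began at positions -57 and -20, counting back from -1, the last base before the start. Those of Sycp3 began at positions -64 and -43. The number of CpG dinucleotides was 19 in Hormad1, 12 in Sycp3, 25 in Smc1b, 10 in Rec8 and 5 in Stra8. Among members with a RefSeq window of 300 bases (250 before the start and 50 after it, 31 of the 36 genes in 38 windows), 15 (48.4%) held the E-box, against 8.09% of the 27025 genes with a window. The E2F6 motif was in 13 of the 31 (41.9%), against 22% of all genes. The half-site, added to the search after the values were seen, was in 16.1% of members and 18.1% of all genes. Direct repeats, a form that retinoid receptors bind, were searched only as exact AGGTCA followed by AGGTCA after a gap of 5 bases (DR5) or of 2 bases (DR2). These exact repeats were in no member window, and each was in 3 of the 32851 windows in all. They were so rare that their absence says nothing of the members, and repeats that differ in a letter were not searched. Each copy within a direct repeat also counts as a half-site. Median CpG number was 18.5 in member windows and 7 in all windows, and median GC content 60.5% and 52.7%, and the part of this in the motif shares was not tested. These are matches of letters, not binding sites.

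**Figure D1:**
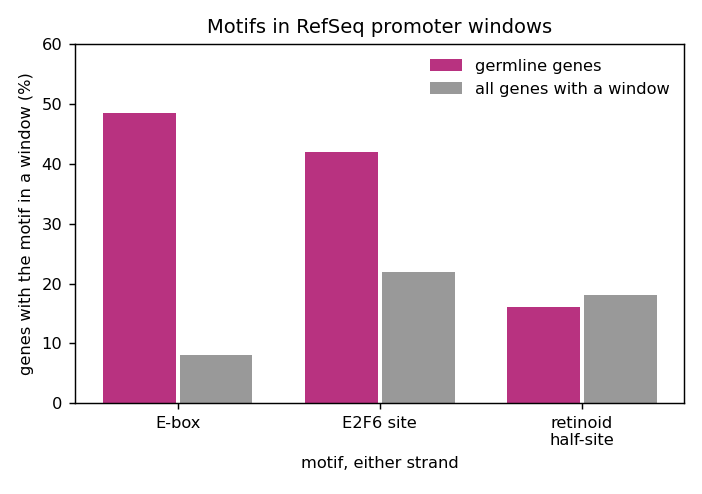
Share of genes (vertical axis, %) whose 300-base RefSeq promoter window holds a motif on either strand, for the germline genes with a window (31) and for all genes with a window (27025). The E-box was in 48.4% of the germline genes and 8.09% of all genes, and the E2F6 motif in 41.9% and 22%, while the retinoid half-site was in 16.1% and 18.1%.

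Levels below are log2 processed signals relative to the 75th percentile of the same array, so that 0 is that percentile and a step of 1 is 2-fold, and differences are treated minus control on that scale, with the standard error (SE) of the fit. Probes differ in brightness, so levels are not set against those of another gene or of the other design. The share of probes flagged well above background ran from 67% to 70.3% per array on the vitamin C design and from 60.9% (RA replicate 3) to 65.6% on the other, and no spot was saturated. Correlation between arrays was at least 0.9919 within groups, from 0.9925 to 0.9955 between VC and ddH2O and from 0.8983 to 0.9033 between RA and DMSO. On the vitamin C design, VC replicates 1 and 2 lay on the same slide as ddH2O replicates 2 and 3, while ddH2O replicate 1 and VC replicate 3 each lay on a slide of their own, the latter scanned separately. The DMSO arrays shared 1 slide and the RA arrays another, so slide and treatment cannot be told apart in the RA comparison.

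The stem cell label was checked against 7 embryonic stem cell markers (Pou5f1, Sox2, Nanog, Zfp42, Klf4, Esrrb, Utf1), and all of those with a probe were detected in the control groups. In RA, where 35.9% of all tested genes rose and 42.1% fell, 6 of the 7 fell and Nanog rose. The summed level of the 7 (linear, in units of the 75th percentile) went from 194.3-200.5 in DMSO to 11.89-11.94. Fibroblast markers went the other way, with 5 of the 6 tested higher and Thy1 lower (summed level 2.056-2.214 to 37.95-40.76), although Postn and Lum were not detected. All 5 primitive endoderm markers rose (0.6783-0.7451 to 3.925-4.369), as did 5 of 6 markers of the two-cell-like state (14.22-15.87 to 291.7-336.3). Of the markers of mature germ cells, Acrv1 and Odf1 of spermatids and Zp2, Bmp15 and Oosp1 of oocytes were detected in neither RA nor DMSO. The summed spermatid level was 0.4225-0.4709 in DMSO and 0.4222-0.5108 in RA (2 higher, 1 lower of 6 tested), and the summed oocyte level 1.353-1.982 and 0.4626-0.5259 (2 lower of 3). Somatic gonad markers rose in 4 of 7 tested (41.84-50.85 to 64.1-76.68), with Amh not detected. These shifts moved with the RA group and so with each gene result below, and their part in those results was not tested. In bulk RNA, fewer cells of a type and less RNA per cell cannot be told apart.

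In retinoic acid the meiotic chromosome genes split. Rec8 rose 11.1-fold and Stra8 2.60-fold, while Hormad1, Sycp3, Smc1b and Dmc1 fell 5.04-fold to 9.84-fold. In all, 6 of the 31 tested members rose and 16 fell (71%), against 78% of all tested genes that changed (35.9% higher and 42.1% lower). The share of members called was thus near the background of this comparison. The counts by role below are to be read against these shares. The median difference of the tested members was -0.50 and that of all genes -0.07. With normexp, another background correction, the members' median was -0.003, and on the spike-in scaling -0.89. Of the calls, 11 were of 2-fold or more, counting the genes at background in 1 group at their bound. The same share over all genes is not given here, so this count says nothing particular of the members. The RA arrays did not overlap the DMSO arrays in any of the 22 called members, nor in 81.7% of all tested genes. Scaling moves the split: on each array's median 4 members rose and 22 fell (all genes shifted by -0.34), and on the spike-in spots 2 rose (Rec8, Stra8) and 17 fell (shift -0.39).

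The gatekeeper of meiotic entry, Stra8, whose product switches on meiotic genes in germ cells, read 5.98, 5.83 and 5.66 on the DMSO arrays and 7.31, 7.06 and 7.23 on the RA arrays. Every RA array lay above every DMSO array, with a difference of 1.38 ± 0.11 (SE, n = 3 and 3; 2.60-fold; limma adjusted p = 4.78e-05). Stra8 was already far above the 75th percentile in DMSO.

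Among the meiotic cohesins, the rings that hold sister chromatids in meiosis, 1 subunit rose and 2 fell. Rec8, the kleisin that closes the ring, read 3.72, 3.70 and 3.70 in DMSO and 7.15, 7.09 and 7.29 in RA. Its difference of 3.48 ± 0.07 (11.1-fold, adjusted p = 2.31e-07) was the highest rise of any tested member. Smc1b, the meiotic SMC arm, read 1.93, 2.04 and 2.06 in DMSO and -0.50, -0.29 and -0.21 in RA, a fall of 5.08-fold (-2.35 ± 0.09, adjusted p = 2.60e-06). Stag3, the subunit that docks on the ring, read 2.02, 1.95 and 2.01 in DMSO and 0.39, 0.49 and 0.40 in RA, a fall of 2.96-fold (-1.57 ± 0.06, adjusted p = 2.37e-06). In each of the 3 genes the spread within a group was small beside the step between groups.

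Genes of the synaptonemal complex, the protein zip that joins paired chromosomes, fell in 3 of 4 tested. Sycp3, of its lateral element, read 1.25, 1.17 and 1.17 in DMSO and -1.11, -1.26 and -1.45 in RA (-2.47 ± 0.10, 5.55-fold, adjusted p = 2.55e-06). Syce2, of the central element, read 4.62, 4.60 and 4.74 in DMSO and 3.1, 3.12 and 3.02 in RA (-1.57 ± 0.07, 2.98-fold, adjusted p = 3.68e-06). All RA arrays were low for both. Syce1, also of the central element, read 3.35, 3.38 and 3.36 in DMSO and 2.93, 2.88 and 2.79 in RA, a smaller step (-0.50 ± 0.06, 1.41-fold, adjusted p = 4.34e-04). Sycp1, the filament that spans the zip, did not pass: it ranged from -1.06 to -1.0 in DMSO and from -1.13 to -0.93 in RA (-0.03 ± 0.07, adjusted p = 0.711). Sycp2, partner of Sycp3, was too dim to be tested, with -6.26, -6.40 and -6.28 on DMSO arrays, none well above background, and -4.31, -5.36 and -4.33 on RA arrays, 2 of them well above it. Its RA level was at least 2.68-fold higher, setting the mean of the RA arrays against the higher, on each DMSO array, of the probe's own signal and the dimmest signal well above background.

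The 4 tested recombination and chromosome axis genes were all called, 2 in each direction, against 78% of all tested genes called. Hormad1, an axis protein that watches over unpaired chromosomes, fell the most of any tested member, from 2.17, 2.15 and 2.14 in DMSO to -1.08, -1.05 and -1.30 in RA (-3.30 ± 0.08, 9.84-fold, adjusted p = 4.20e-07). A second Hormad1 probe, on its own, differed by -3.93. Dmc1, the meiotic strand exchange protein, read 0.73, 0.69 and 0.70 in DMSO and -1.61, -1.44 and -1.82 in RA (-2.33 ± 0.10, 5.04-fold, adjusted p = 4.28e-06), and its other 2 probes differed by -2.05 and -2.04. Both genes were low on all 3 RA arrays on every probe. Prdm9, the methyltransferase that places recombination hotspots, was dim but rose, from -4.32, -3.83 and -4.37 to -3.18, -3.19 and -3.57 (0.86 ± 0.18, 1.81-fold, adjusted p = 0.00493). The adjusted p rose past 0.05 after quantile normalization and on the spike-in scaling. A second, dimmer Prdm9 probe, well above background on 1 array of each group, differed by 0.32 with overlapping groups. Tex11, needed for crossovers, rose from 0.10, 0.16 and 0.06 to 0.36, 0.42 and 0.33 (0.27 ± 0.06, 1.20-fold, adjusted p = 0.00752), a direction that turned on the median scaling (-0.08) and on the spike-in scaling (-0.13). Spo11, which cuts the DNA to start recombination, was not well above background on any of the 6 arrays, by its only probe on this design. On the vitamin C design the same probe was well above background on 1 ddH2O array and no VC array. Another Spo11 probe was well above it on all 6 arrays there, so absence of Spo11 cannot be read from this probe.

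**Figure D2:**
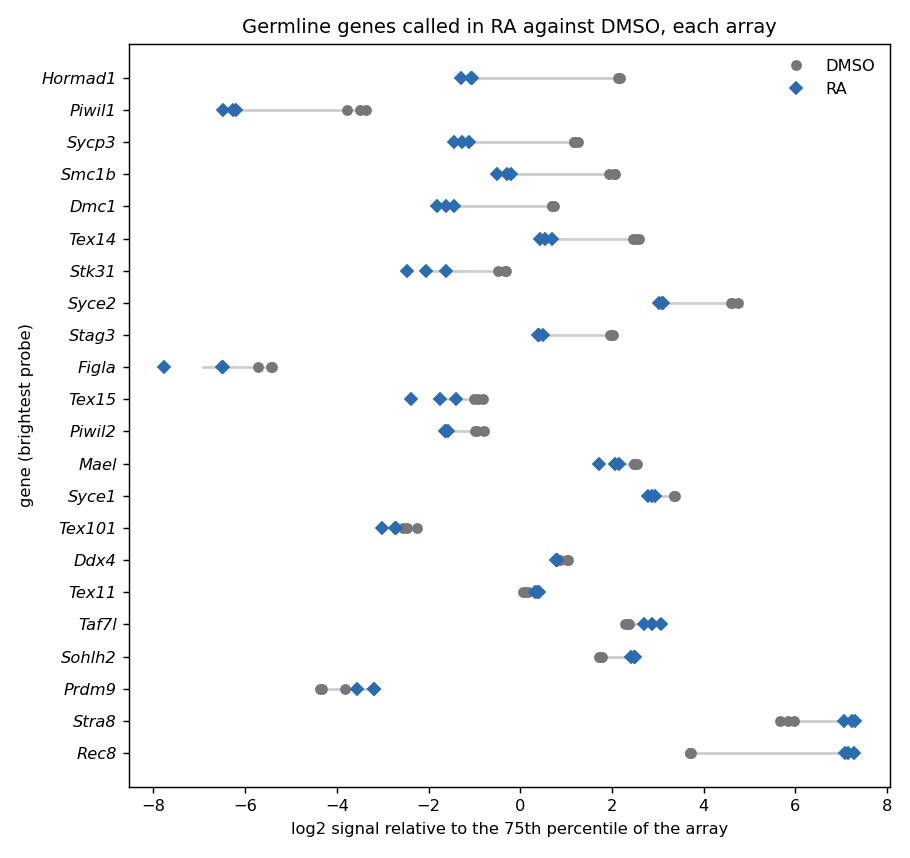
Level of each germline gene called in RA against DMSO on each of the 6 arrays (horizontal axis, log2 signal relative to the 75th percentile of the array), with grey circles for DMSO, blue diamonds for RA and a grey line joining the group means. Rec8 moved from about 3.70 to 7.18 and Hormad1 from 2.16 to -1.14. In none of the 22 genes did the groups overlap, nor did they in 81.7% of all tested genes.

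Of the piRNA pathway and germ granule genes, which silence transposons in germ cells with small RNAs, 5 of 8 tested fell and none rose. Piwil1, a PIWI protein of late male germ cells, read -3.37, -3.50 and -3.77 in DMSO and -6.19, -6.27 and -6.48 in RA. It was well above background on all 3 DMSO arrays and on none of RA, so by the bound used here its fall was at least 4.24-fold. The adjusted p of 5.25e-06 is that of the difference without the bound (-2.77). With normexp background correction the difference was -0.12 and was not called (adjusted p = 0.259). Stk31, a kinase-like Tudor protein, read -0.31, -0.48 and -0.34 in DMSO and -2.05, -1.61 and -2.46 in RA (-1.67 ± 0.21, 3.17-fold, adjusted p = 4.15e-04). Tex15, which directs piRNA-guided DNA methylation, read -0.93, -1.01 and -0.81 in DMSO and -1.74, -1.41 and -2.38 in RA (-0.92 ± 0.24, 1.90-fold, adjusted p = 0.0115). In both genes RA replicate 3 was the lowest array. Piwil2, the PIWI protein of earlier male germ cells, read -0.79, -0.95 and -0.98 in DMSO and -1.64, -1.57 and -1.61 in RA (-0.70 ± 0.07, 1.63-fold, adjusted p = 1.64e-04). Mael, which works with it against transposons, read 2.55, 2.49 and 2.49 in DMSO and 2.06, 2.15 and 1.71 in RA (-0.54 ± 0.12, 1.45-fold, adjusted p = 0.00622), and was not called after quantile normalization. Asz1 (-0.95 ± 0.44, adjusted p = 0.0908) and Tdrd9 (-1.07 ± 0.49, adjusted p = 0.0873) did not pass, and each was well above background on all 3 DMSO arrays and on 1 RA array. Both were called lower on median scaling (-1.29 and -1.41), after quantile normalization (-1.38 and -1.61) and on the spike-in scaling (-1.35 and -1.47), and higher with normexp (0.38 and 0.41). Mov10l1, the helicase that feeds piRNA precursors, ranged from -2.69 to -2.15 in DMSO and from -2.59 to -2.11 in RA (adjusted p = 0.416). Tdrd1 was at background on all 6 arrays by its only probe on this design. That probe was at background on the vitamin C design too, where another Tdrd1 probe was well above it on all 6 arrays. Absence of Tdrd1 thus cannot be read from this probe.

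The germ cell RNA-binding proteins moved little in RA, with 1 of 4 called. Ddx4, the helicase known as Vasa, read 0.87, 1.05 and 1.03 in DMSO and 0.78, 0.81 and 0.81 in RA, a fall of 1.14-fold at the edge of the threshold (-0.18 ± 0.07, adjusted p = 0.0468). This call was lost in 14 of 20 alternatives, among them quantile normalization (adjusted p = 0.137) and the authors' series values (adjusted p = 0.123). Dazl, a translation regulator of early germ cells, ranged from 0.64 to 0.71 in DMSO and from 0.68 to 0.94 in RA (0.16 ± 0.08, adjusted p = 0.128). Dnd1, which blocks microRNA action in germ cells, and Nanos3, which keeps primordial germ cells alive, differed by 0.01 ± 0.08 each (adjusted p = 0.938 and 0.894), but on the median scaling both were called lower (-0.33 each). Nanos2, a regulator of male germ cells, was too dim to be tested, at -7.24, -6.47 and -7.59 in DMSO and -4.98, -6.01 and -5.72 in RA, with 1 RA array well above background.

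Of the germ cell transcription and chromatin genes, 2 of 4 rose and 1 fell. Sohlh2, a transcription factor of early spermatogonia and oocytes, read 1.79, 1.74 and 1.71 in DMSO and 2.51, 2.49 and 2.41 in RA (0.72 ± 0.06, 1.65-fold, adjusted p = 6.40e-05). Taf7l, a germ cell form of a TFIID subunit, read 2.34, 2.38 and 2.29 in DMSO and 2.87, 2.70 and 3.06 in RA (0.54 ± 0.10, 1.45-fold, adjusted p = 0.00263). All RA arrays were high for both, though neither passed on the spike-in scaling nor Taf7l on the median scaling. Figla, a transcription factor of oocytes, read -5.44, -5.41 and -5.71 in DMSO and -7.77, -6.49 and -6.51 in RA, where no array was well above background. Figla was called (adjusted p = 0.0102 for the difference of -1.40), with a fall of at least 1.08-fold by the bound used here. With normexp background correction the sign turned and Figla was called higher (0.46, adjusted p = 0.00106). The probes of Brdt, the testis bromodomain protein, differed between themselves: the brighter ranged from -0.76 to -0.69 in DMSO and from -0.82 to -0.43 in RA (0.06 ± 0.11, adjusted p = 0.643), while the dimmer rose from -4.12, -4.14 and -4.23 to -3.04, -2.92 and -3.32 (1.07, adjusted p = 2.15e-04 in the fit of single probes).

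Of the remaining members, 2 of 3 fell. Tex14, which holds open the bridges between germ cells, read 2.47, 2.58 and 2.52 in DMSO and 0.43, 0.70 and 0.53 in RA (-1.97 ± 0.08, 3.92-fold, adjusted p = 3.82e-06). Tex101, a surface protein of germ cells, read -2.25, -2.55 and -2.46 in DMSO and -3.01, -2.73 and -2.70 in RA (-0.39 ± 0.12, 1.31-fold, adjusted p = 0.0221), a fall that another background correction turned (0.06). The germ cell ADP/ATP carrier Slc25a31 ranged from -1.86 to -1.76 in DMSO and from -1.99 to -1.40 in RA (0.13 ± 0.15, adjusted p = 0.435).

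The members with the E2F6 motif in their window (13 tested) held 2 that rose and 9 that fell, with a median difference of -1.56, and those without it (14 tested) held 3 and 5, with a median of -0.19. Over all tested genes with a window, 44.2% of those with the motif and 41.5% of those without it were lower, with medians of -0.12 and -0.05. For the E-box, members with it (14) held 1 that rose and 8 that fell (median -0.80) and members without it (13) 4 and 6 (median -0.39). Over all genes, 49.5% with the E-box and 41.6% without it were lower. Rec8, with an E2F6 motif and no E-box, rose, and Smc1b, with the same motifs, fell. Each motif was thus found in members that went either way.

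In vitamin C the differences were small, and more of the called members fell than rose. Smc1b, Taf7l, Dazl, Brdt, Ddx4, Tex14 and Tdrd9 were lower by 1.19-fold to 1.43-fold, and Tex15 and Dnd1 were higher by 1.23-fold and 1.17-fold. That is 9 of the 32 tested members (28.1%), against 17.1% of all tested genes (6.59% higher and 10.5% lower). The median difference of the members was -0.12 and that of all genes 0.00, and 25 of the 32 were below 0. The sign of the members' median turned on the spike-in scaling (0.05) and with normexp background correction (0.16). No member reached 1.5-fold. Scaled on each array's median 2 members rose and 4 fell, and on the spike-in spots, where all genes shifted by 0.18, none was called (Tex15 alone had an unadjusted limma p under 0.05). The VC arrays did not overlap the ddH2O arrays in 16 of the 32 members, nor in 41.9% of all tested genes.

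The number of calls varied with the arrays used, for all genes as for the members. Without ddH2O replicate 2 no member was called (11 at an unadjusted limma p under 0.05), and 62 genes in all were higher and 335 lower, against 958 and 1533 with all arrays. Without VC replicate 1 Dazl was the 1 member called, beside 133 genes higher and 505 lower in all. On the shared slide alone, with 2 arrays a group, no gene at all was called (15 members and 3890 genes at an unadjusted limma p under 0.05), so this fit says nothing of the members. With the slide as a random block all 9 calls were kept. That fit called more genes in all, 1046 higher and 1641 lower, against 958 and 1533 without the block. With the slide as a fixed block no gene at all was called. The 9 had the same sign on the shared slide and between the arrays on slides of their own. Since their groups do not overlap, that sign was fixed in advance and says nothing of the slides.

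The meiotic cohesin arm Smc1b had the largest fall in vitamin C among the calls, from 2.28, 2.42 and 2.18 on the ddH2O arrays to 1.72, 1.87 and 1.76 on the VC arrays (-0.51 ± 0.08, 1.43-fold, adjusted p = 0.0132). The Smc1b difference was -0.51 on the shared slide and -0.52 between the arrays on separate slides, which are 1 array a group. For Dazl both values were -0.40, but they lay further apart in Brdt (-0.46 and -0.25), Dnd1 (0.28 and 0.10) and Tex14 (-0.31 and -0.14). Rec8, whose 2 probes differed by -0.07 and -0.02, and Stag3 (-0.08 ± 0.06) did not pass. No gene of the synaptonemal complex passed, with differences from -0.12 (Syce1, Syce2) to 0.28 (Sycp2). Nor did a recombination gene: Dmc1 read 0.71, 0.72 and 0.66 in ddH2O and 0.50, 0.42 and 0.55 in VC, without overlap but just outside the threshold (-0.21 ± 0.06, adjusted p = 0.0533). Hormad1, the strongest fall in RA, ranged from 1.24 to 1.52 in ddH2O and from 1.11 to 1.45 in VC (-0.05 ± 0.12, adjusted p = 0.779), and Spo11 and Tex11 were dim with differences of -0.40 ± 0.19 and -0.13 ± 0.19. Stra8 read 6.06, 6.12 and 6.06 in ddH2O and 6.14, 5.64 and 6.12 in VC, with VC replicate 2 apart from the rest (-0.12 ± 0.14, adjusted p = 0.586).

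Of the germ cell RNA-binding proteins, 3 of 4 tested were called, against 17.1% of all tested genes. Dazl read 1.48, 1.49 and 1.44 in ddH2O and 1.11, 1.03 and 1.08 in VC (-0.40 ± 0.05, 1.32-fold, adjusted p = 0.00914), and its second probe fell likewise (-0.46, adjusted p = 0.0320 in the fit of single probes). Ddx4 read 0.71, 0.75 and 0.55 in ddH2O and 0.29, 0.45 and 0.33 in VC (-0.32 ± 0.08, 1.25-fold, adjusted p = 0.0394). Both were low on all 3 VC arrays. Dnd1 went the other way, from 0.65, 0.55 and 0.56 to 0.84, 0.84 and 0.75 (0.22 ± 0.06, 1.17-fold, adjusted p = 0.0458). Nanos3 differed by 0.01 ± 0.13 and Nanos2 was at background on all 6 arrays.

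Among piRNA pathway genes, 1 of 9 rose and 1 fell, against 6.59% and 10.5% of all tested genes. Tex15 rose from -0.99, -1.08 and -1.02 to -0.75, -0.75 and -0.71 (0.29 ± 0.05, 1.23-fold, adjusted p = 0.0188), the largest rise of a called member in vitamin C. Tdrd9, a helicase of the pathway, fell from -3.21, -3.18 and -3.35 to -3.54, -3.48 and -3.47 (-0.25 ± 0.07, 1.19-fold, adjusted p = 0.0458). Mael (-0.31 ± 0.10, adjusted p = 0.0708) and Piwil2 (-0.34 ± 0.11, adjusted p = 0.0794) had non-overlapping groups and did not pass. Piwil1 had the most negative difference of all members, -0.52 ± 0.31, which came with 1 low array (VC replicate 2 at -4.48, against -3.38 to -3.10 on the other 5; adjusted p = 0.283). Asz1, Stk31, Tdrd1 and Mov10l1 differed by -0.20 to 0.06 and did not pass. A second, dimmer Mov10l1 probe differed by 0.26 without overlap and did not pass either (adjusted p = 0.0914 in the fit of single probes).

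Taf7l fell from 0.59, 0.71 and 0.63 to 0.23, 0.29 and 0.12 (-0.43 ± 0.07, 1.34-fold, adjusted p = 0.0139), and its second probe by 0.27 (adjusted p = 0.0461 in the fit of single probes). Brdt fell from -3.27, -3.16 and -3.30 to -3.75, -3.62 and -3.52 (-0.39 ± 0.08, 1.31-fold, adjusted p = 0.0242), and its second probe had the same difference without passing (-0.39, adjusted p = 0.0937). Tex14 fell from 0.53, 0.68 and 0.51 to 0.29, 0.27 and 0.38 (-0.26 ± 0.07, 1.20-fold, adjusted p = 0.0494), the weakest of the calls, and its dimmer probe differed by -0.11. The VC arrays were low in these 3 genes with no overlap. Sohlh2 (0.17 ± 0.09), Figla (0.16 ± 0.26), Tex101 (-0.17 ± 0.11) and Slc25a31 (-0.11 ± 0.09) did not pass.

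**Figure D3:**
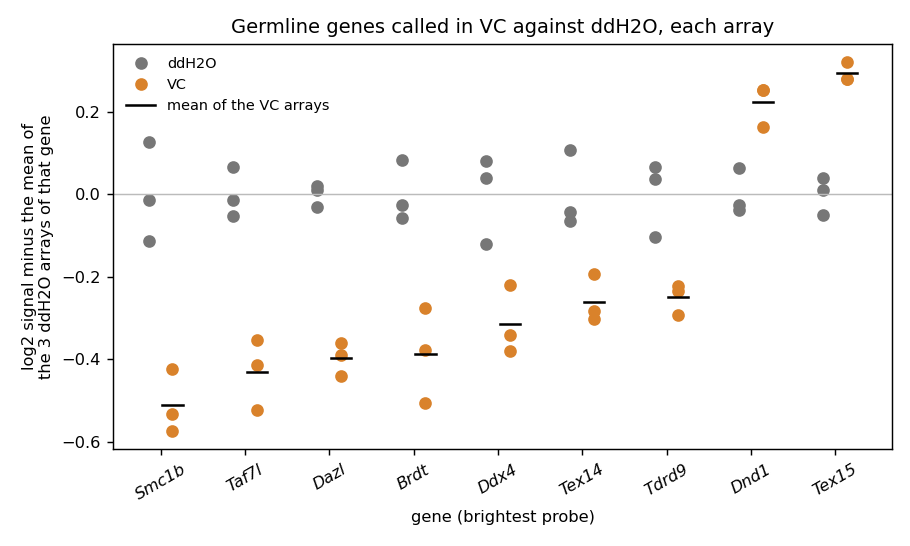
The 9 germline genes called in VC against ddH2O: each point is 1 array, as log2 signal minus the mean of the 3 ddH2O arrays of that gene (vertical axis), with grey for ddH2O, orange for VC and a bar at the VC mean. The VC means lie between -0.51 (Smc1b) and 0.29 (Tex15). The points of the 2 groups overlap in none of these called genes, nor did they in 41.9% of all tested genes.

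Cell markers also differed in this comparison, in which 6.59% of all tested genes were higher and 10.5% lower. Of the stem cell markers, 4 of 6 tested rose (summed level 83.48-89.88 in ddH2O and 105-111.8 in VC). All 5 tested two-cell-like markers fell (8.782-9.03 to 5.682-6.213), and 2 of 6 tested fibroblast markers fell (3.735-4.059 to 2.888-3.02, Lum not detected). The spermatid (0.3319-0.4851 and 0.3929-0.5341), oocyte (1.303-1.368 and 1.318-1.387) and primitive endoderm (0.4128-0.4485 and 0.3896-0.4358) sums overlapped with no member called, and Zp2, Bmp15, Oosp1, Acrv1 and Odf1 were not detected. The somatic gonad sum was 1.766-3.013 and 2.264-3.115, with Wt1 higher. The part of these shifts in the results was not tested.

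Both comparisons tested 29 of the members, on separate arrays with separate controls. Of these, 5 were called in both, 4 in vitamin C, 15 in retinoic acid and 5 in neither. Ddx4, Smc1b and Tex14 were lower in both, with falls given here for vitamin C and then retinoic acid. Smc1b fell by 1.43-fold and 5.08-fold, Tex14 by 1.20-fold and 3.92-fold, and Ddx4 by 1.25-fold and 1.14-fold. The Ddx4 call was lost in 14 of 20 alternatives in retinoic acid and in 14 of 24 in vitamin C. In vitamin C the Tex14 call was lost in 20 of 24 and the Smc1b call in 8. Taf7l was lower in vitamin C (-0.43) and higher in retinoic acid (0.54). Tex15 was higher in vitamin C (0.29) and lower in retinoic acid (-0.92). Taf7l and Tex14 were read from different probes on the 2 designs, and Ddx4, Smc1b and Tex15 from the same probe. The difference between the responses to the 2 agents was not tested, since vehicle and array design differ with the agent.

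**Figure D4:**
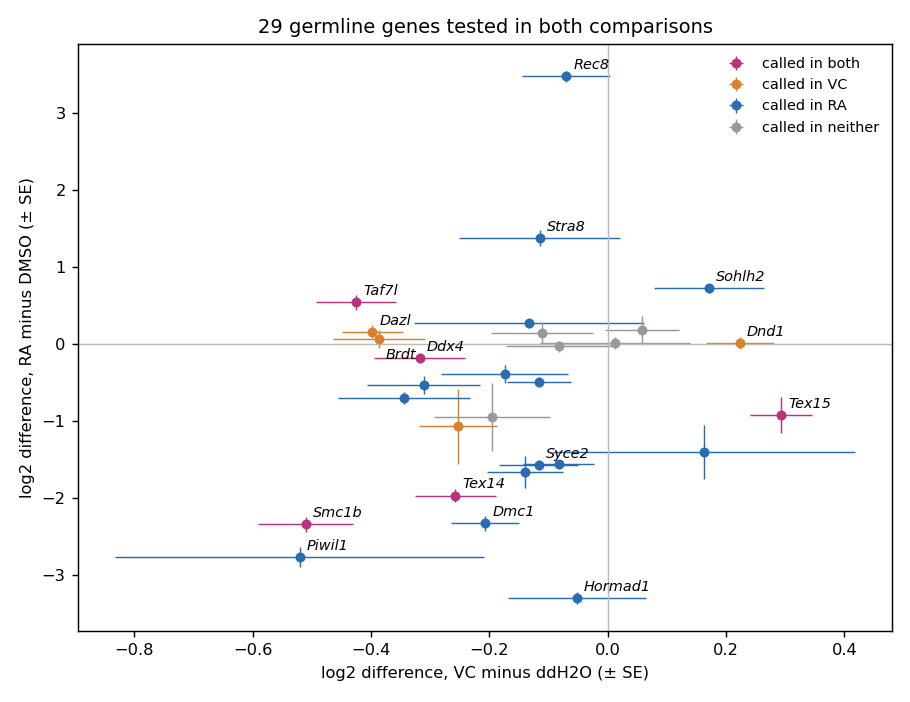
Log2 difference of 29 germline genes in VC minus ddH2O (horizontal axis) against RA minus DMSO (vertical axis, on a wider scale), each point a gene with its standard errors, coloured by the comparison in which it was called. Differences reach from -3.30 (Hormad1) to 3.48 (Rec8) in RA and stay between -0.52 and 0.29 in VC.

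Detection was compared per group. On the vitamin C design 32 of the 33 members with a probe (97%) were well above background on all 6 arrays, against 74.2% of all genes. On the other design this was 27 of 35 (77.1%), against 69.8%. Piwil1 and Figla were detected in DMSO and on no RA array, and Sycp2 and Nanos2 on some RA arrays and no DMSO array.

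A list of 48 other germline and meiosis genes was read beside the members. In RA, 9 of 39 tested rose and 24 fell (84.6% called, against 78% of all tested genes, median -0.70). Tdrd12, a piRNA pathway protein, fell 13.1-fold (1.273 to 1.393 in DMSO, -2.56 to -2.19 in RA; adjusted p = 7.51e-07), Majin, which ties telomeres to the nuclear envelope in meiosis and was still well above background on 2 of the 3 RA arrays, 7.56-fold, and Gtsf1, a PIWI partner, 5.70-fold. Rhox9 rose 6.36-fold and Tdrd7 3.81-fold, and Henmt1, the piRNA methyltransferase, which was well above background on no DMSO array and on all 3 RA arrays, at least 3.39-fold. In vitamin C 2 of 30 tested rose and 8 fell (33.3%, against 17.1% of all tested genes, median -0.10). Tdrd7 fell 2.11-fold (-0.46 to -0.30 in ddH2O, -1.58 to -1.28 in VC; adjusted p = 0.00510), more than any of the members, Terb1 1.52-fold and Mei1 1.51-fold, and Fkbp6 and Ccnb1ip1 rose 1.27-fold and 1.17-fold. Tdrd7 thus fell in vitamin C and rose in retinoic acid, though it was read from a different probe on each design.

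The germline gene repressors themselves were listed too: the PRC1.6 subunits and the H3K9 and DNA methylation enzymes. In RA, 5 of 24 rose and 18 fell (95.8% called, against 78% of all tested genes, median -0.63). The DNA methylation cofactor Dnmt3l fell 5.72-fold, the methyltransferase Dnmt3b 4.53-fold and the PRC1.6 subunit L3mbtl2 3.05-fold, while Yaf2 rose 2.82-fold, E2f6 1.82-fold and Dnmt3a 1.42-fold. In vitamin C, 3 of 23 were called (13%, against 17.1% of all tested genes, median 0.09). The H3K9 methyltransferase Setdb1 (1.29-fold) and Wdr5 (1.14-fold) were higher, and Ehmt2, another H3K9 methyltransferase, was 1.19-fold lower. Of the 4 genes of the TET list in RA, Tet1 fell 12.1-fold and Tet2 5.54-fold and Tet3 rose 1.38-fold (75% called, against 78% of all tested genes). In vitamin C Tet1 alone of the 4 was called, 1.27-fold higher (25% called, against 17.1% of all tested genes).

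Of 16 genes of primordial germ cell specification, the step at which embryo cells become germ cells, 4 rose and 8 fell in RA. That is 75% called, against 78% of all tested genes. Esrrb fell 62.1-fold, Prdm14 51.9-fold and Pou5f1 33.0-fold, and Nanog (2.50-fold), T (2.01-fold, well above background on 2 arrays of each group) and Smad5 (1.77-fold) rose. In vitamin C, 2 of 13 rose (Bmp4 1.34-fold, Esrrb 1.32-fold) and Dppa3 fell 1.23-fold (23.1% called, against 17.1% of all tested genes). The standard reporter genes of retinoic acid signalling all rose in RA (10 of 10, against 35.9% of all tested genes), with Cyp26b1 987-fold, Cyp26a1 323-fold and Stra6 92.5-fold higher. In vitamin C, 4 of the 10 were lower, against 10.5% of all tested genes, among them Cyp26b1 (1.52-fold), Cdx1 (1.34-fold) and Dhrs3 (1.23-fold).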

How the data were processed

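Intensities are the processed signals of one-colour scanner files deposited by the authors, extracted with Agilent's software, version 10.7.3.1 by their headers (Feature Extraction 10.7 per the submitters' processing notes), and already background-subtracted per the file headers. The deposited series table holds the authors' log2 values of the same arrays and was used as an alternative. Here log2 signals had each array's 75th percentile subtracted and outlier-flagged spots removed (no spot of a member was flagged). Spots were averaged per probe, and a gene was read from its brightest probe and tested where well above background on 3 or more of 6 arrays. Symbols come from RefSeq (GRCm38.p6) through transcript accessions. Each design was normalized and fitted on its own with limma 3.58.1 (R 4.3.3; lmFit, eBayes), and p-values were adjusted by Benjamini-Hochberg over all genes, with 0.05 as threshold. The fit was tested on simulated data.

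A group that is not well above background on any array gives a bound ("at least"), from the dimmest signal well above background on each array. This bound is a convention and not a strict limit, and a p-value beside it tests the difference without the bound. Every called member and every member detected in 1 group alone is named with its 6 values, and of each other list up to 3 called genes a direction. Dppa3 has a flagged spot on 1 ddH2O array. The members and lists were chosen with earlier results of these data known. Alternatives were other scalings, background correction, filters, probe summaries, thresholds, slide and replicate blocks, and leaving out each array. A normexp fit without spots of high local background and the shared slide alone were added after seeing the data.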

Additional observations from a re-analysis of the deposited data

How the results depend on the processing

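Of the 22 members called in retinoic acid, 11 kept direction and call under all 20 alternatives: Dmc1, Hormad1, Piwil2, Rec8, Smc1b, Stag3, Stk31, Stra8, Syce2, Sycp3 and Tex14. The count of higher members was 2 on spike-in scaling, 11 with normexp background correction and 10 with no filter on dim probes, against 6, and the count of lower members stayed within 12 to 22. Leaving out 1 array gave 6 to 8 higher and 15 lower. Where a difference was called under either setting, its sign turned on median scaling for Brdt (-0.281), Dnd1 (-0.334), Nanos3 (-0.330) and Tex11 (-0.076), on spike-in scaling for Tex11 (-0.129), and with normexp for Asz1 (0.381), Figla (0.463), Tdrd9 (0.409) and Tex101 (0.056); the cause was not tested. All 9 members tested and not called in retinoic acid (Asz1, Brdt, Dazl, Dnd1, Mov10l1, Nanos3, Slc25a31, Sycp1 and Tdrd9) changed sign in 1 or more alternatives.

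None of the 9 vitamin C calls was kept under all 24 alternatives, Dazl being called in 18. Members higher and lower numbered 0 and 0 on spike-in scaling (1 member at an unadjusted limma p under 0.05), with normexp (4), with a slide block and on the shared slide alone (15 each) and with a 1.5-fold threshold, 0 and 1 at an adjusted p of 0.01, 0 and 3 with the replicate block and with normexp without spots of high local background, 1 and 3 with no filter, 2 and 4 on median scaling, and 1 and 7 with every probe on its own (which counts probes). Leaving out 1 array gave 0 to 2 higher and 0 to 6 lower. With normexp Brdt (0.721) and Tdrd9 (0.611) turned sign (adjusted p = 0.652), as did 18 of the 23 uncalled members in 1 or more alternatives. With the slide as a random block 2 were higher and 8 lower. Counts over all tested genes ranged from 0 to 1567 higher and 0 to 1845 lower, against 958 and 1533. Same-numbered arrays did not deviate together (correlations -0.116, 0.06 and -0.066 on the vitamin C design, -0.036, -0.003 and -0.055 on the other). No pairing by number was thus seen, though so few arrays cannot exclude it. With the replicate block in retinoic acid 6 members were higher and 14 lower. Signal over background limits Spo11, Tdrd1, Nanos2, Sycp2, Piwil1 and Figla.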
